A study of Rattus norvegicus with 13 samples.

Results

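The miR-126 strands are rno-miR-126 and rno-miR-126*, 2 of the 677 rat microRNAs (miRNAs) on the array, picked by their names in the array files. MiRNAs are short RNAs that pair with messenger RNAs and lower their output. They were measured in the fat of female Sprague Dawley rats aged 14 weeks. The 6 HFD animals were daughters of males on a high-fat diet with 43% as fat, and the 7 control animals were daughters of males on standard chow with 9% as fat. In both groups the males were mated at 15 weeks with chow-fed females, and the daughters ate chow after weaning at 3 weeks, so only the father's diet differed by design. Each animal gave 1 Agilent 1-colour array, read from 100 ng of total RNA labelled with Cy3. Neither the litter, the father nor the depot of the fat is labelled. Whether some animals were sisters is not known, and the p-values measure the spread between these animals.

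MiR-126 is made from an intron of Egfl7, a gene for a protein that endothelial cells secrete, and it is widely used as a miRNA of the endothelium, the inner lining of blood vessels. In mouse and human endothelial cells the strand called miR-126 (the 3p strand) is known to lower Spred1 and Pik3r2, inhibitors of growth factor signalling, and loss of miR-126 in mice gives leaky vessels. The strand called miR-126* (the 5p strand) is known in mouse endothelial cells to lower Dlk1, an inhibitor of Notch signalling that also restrains adipocyte formation. Fat is rich in capillaries, and whole fat holds endothelial cells beside adipocytes, blood cells and nerve. Both strands are cut from the arms of 1 hairpin precursor, and they can be loaded and degraded separately.

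The mature strands are shown with their seed, bases 2 to 8 of the 5′ end that lead target pairing, in capitals. The third sequence is the antisense miRNA of the same locus, shown because it was on the array as rno-miR-3567 and overlaps the 5p strand.
rno-miR-126 (miR-126a-3p): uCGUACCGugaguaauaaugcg
rno-miR-126* (miR-126a-5p): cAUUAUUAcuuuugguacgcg
rno-miR-3567 (miR-126b): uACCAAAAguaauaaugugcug
The sequences and positions are those of RefSeq on rat build GRCr8, matched by miRNA name, and all 3 names were found. The 3p strand lies at chr3:29813219-29813240 and the 5p strand at chr3:29813182-29813202, both on the plus strand, with 16 bases between them. Egfl7 spans chr3:29802481-29814966 in the same annotation, so both strands lie within that gene; exon positions were not used here. The gene symbols at the locus are crossed relative to the strand names. RefSeq calls the 73-base precursor of the miR-126a strands Mir126b and the 118-base antisense gene Mir126a. The antisense strand lies at chr3:29813177-29813198 on the minus strand, where 17 of its bases are complementary to the 5p strand. Within the hairpin, the longest run of the 5p strand complementary to the 3p strand is 10 bases. The seeds of these 3 strands are in 0 other mature miRNAs among the 693 names of the table, so none of the 3 has a seed family there.

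Both strands were measured well above background on every array. Rno-miR-126 had 2 probes with 10 spots each per array, and rno-miR-126* had 1 probe with 20 spots. All 260 spots of the 2 rno-miR-126 probes and all 260 of the rno-miR-126* probe were well above background, and 0 were saturated. Raw background-subtracted intensities ran from 3333 to 5222 and from 5895 to 9401 for the rno-miR-126 probes, and from 644 to 1114 for the rno-miR-126* probe. The spots of a probe differed little within an array, with a median coefficient of variation of 3.21% and 3.65% for the rno-miR-126 probes and 2.60% for the rno-miR-126* probe. The antisense miRNA gave no such signal. Its 2 probes had 1 of 130 spots well above background each, with raw intensities between -1.91 and 8.39, so it was detected on 0 of 13 arrays.

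Over the series, 176 miRNAs were detected on at least 6 arrays and tested. Arrays had 155 to 196 miRNAs detected and 19.98% to 25.1% of spots well above background, the lowest on control 627 and the highest on HFD 663. Levels are log2 of the signal divided by the 75th percentile of the probes bright enough to be detected on all arrays, so a level says how a miRNA compares with the array's own bright probes. Since probes vary in brightness, no level of 1 miRNA is compared here with that of another. Arrays of pairs of animals correlated at 0.922 to 0.997 over the tested miRNAs, and no 2 were identical. The arrays lay on 2 slides, each with its own scan. Slide 1 held 4 HFD and 4 control arrays, and slide 2 held 2 HFD and 3 control arrays. On control 662, control 664 and HFD 629, the skeletal muscle miRNA miR-1 had log2 levels of 1.94 to 2.74, and on the other 10 arrays it had levels of -5.24 to -1.28. Control 658 stood apart in smooth muscle miRNAs. The group differences, the strand correlation and the slide interaction are also given without arrays of these 4, as named beside each.

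The first question was whether the father's diet was followed by another level of the 3p strand in the daughters' fat. Rno-miR-126 had a similar level in both groups. Its lowest, median and highest log2 levels were 1.37, 1.65 and 1.68 in the 6 HFD animals, against 1.33, 1.52 and 1.70 in the 7 control animals. The groups overlapped over nearly their whole range. The highest value of all was control 656, and the lowest were control 664 and control 658. Of the HFD animals, 4 of 6 were above the control mean, and HFD 629 was the lowest at 1.37. The mean was 1.59 ± 0.13 in HFD animals (SD, n = 6) and 1.51 ± 0.14 in control animals (SD, n = 7). The log2 difference, HFD minus control, was 0.08 ± 0.07 (SE), a fold of 1.06 with a 95% interval of 0.946 to 1.18, and it did not pass (limma, adjusted p = 0.965).

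The 5p strand gave nearly the same picture. The lowest, median and highest log2 levels of rno-miR-126* were -1.21, -1.05 and -0.92 in HFD animals, against -1.33, -1.16 and -0.95 in control animals. HFD 619 was the only HFD value above all controls, and 3 controls, 664, 627 and 658, were below all HFD values. Again 4 of 6 HFD animals were above the control mean. The mean was -1.07 ± 0.10 in HFD animals and -1.15 ± 0.14 in control animals (SD, n = 6 and 7). The log2 difference was 0.09 ± 0.07 (SE), a fold of 1.06 with a 95% interval of 0.958 to 1.18, which did not pass either (limma, adjusted p = 0.965). A lower or higher level in whole fat could come from another number of endothelial cells or from another amount of the RNA per cell, and these cannot be told apart in bulk tissue.

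**Figure D1:**
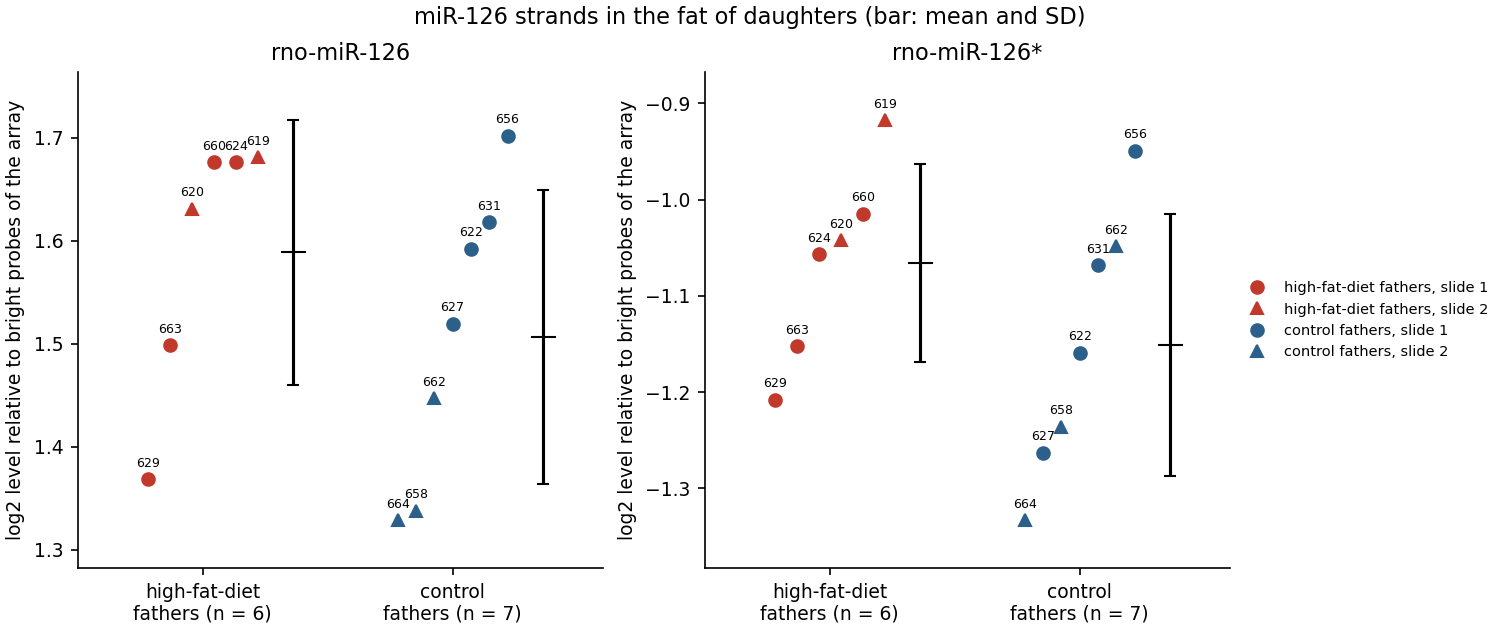
Log2 level of rno-miR-126 (left) and rno-miR-126* (right) relative to the bright probes of each array, 1 point per animal with its number, HFD (n = 6) left of control (n = 7); circles are slide 1, triangles slide 2, and bars give the mean and SD. For rno-miR-126 the HFD points lie between 1.37 and 1.68 and the control points between 1.33 and 1.70.

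No miRNA of the series passed the test between the groups, so the strands did not stand apart from the rest in this. At an adjusted p under 0.05, 0 of 176 tested miRNAs were called (0%). At an unadjusted p under 0.05 there were 2 of 176 (1.14%), and neither strand was among them. Over all tested miRNAs, 91 were higher and 85 lower in HFD animals, and the median log2 difference was 0.0028, with SEs of 0.085 at the median. The SEs of the strands were 0.075 for rno-miR-126 and 0.068 for rno-miR-126*.

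The separate probes gave the same result as their averages. The 2 probes of rno-miR-126 had log2 differences of 0.07 ± 0.07 and 0.09 ± 0.08 (SE), HFD minus control, and the rno-miR-126* probe had 0.09 ± 0.07. Fitted over 381 probes, each had an adjusted p of 1 (limma). The brighter rno-miR-126 probe was above the dimmer one by 0.77 to 0.92 on the log2 scale on every array, with an SD of 0.04, so the array noise between 2 probes of 1 miRNA was small beside the spread between animals.

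Because both strands come from 1 precursor, their difference within an animal was set against the groups. The log2 level of rno-miR-126* minus that of rno-miR-126 averaged -2.65 ± 0.06 in HFD animals (SD, n = 6) and -2.66 ± 0.10 in control animals (SD, n = 7). It ran from -2.73 to -2.58 in HFD animals and from -2.78 to -2.50 in control animals, so the HFD values lay wholly inside the control range. The means differed by 0.0036, far less than either SD, and no test was made of it. The offset itself is not a strand ratio, since the probes of the strands differ. Only its change between animals can be read. Over the 13 animals the SD was 0.14 for rno-miR-126, 0.13 for rno-miR-126* and 0.08 for their difference.

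The strands went up and down together from animal to animal. Pearson's r between their log2 levels over the 13 arrays was 0.820 (permutation p = 0.00068, adjusted p = 0.00272) and Spearman's rho was 0.830 (permutation p = 0.00084, adjusted p = 0.00336). Adjustment was over the 4 relations computed, which were all arrays, each diet group and slide 1. In HFD animals r was 0.895 (n = 6, exact permutation p = 0.0111, adjusted p = 0.0154) and rho was 0.829 (exact permutation p = 0.0583, adjusted p = 0.0778). In control animals r was 0.749 (n = 7, exact permutation p = 0.0611, adjusted p = 0.0611) and rho was 0.714 (exact permutation p = 0.0881, adjusted p = 0.0881). The relation thus passed by Pearson's r in HFD animals and by neither measure in control animals, and the difference between the groups was not tested. On slide 1 alone, r was 0.822 (n = 8, permutation p = 0.0115, adjusted p = 0.0154) and rho was 0.857 (permutation p = 0.0111, adjusted p = 0.0222). No correlation was made on slide 2, which held 5 arrays. Without control 658 and control 664, the 2 arrays farthest from the median of rno-miR-126, r was 0.706 (n = 11, permutation p = 0.0164). Without the 3 animals high in miR-1, r was 0.837 and rho 0.891 (n = 10, permutation p = 0.00088 and 0.00109), and without control 658 as well they were 0.875 and 0.883 (n = 9, permutation p = 0.00164 and 0.00269). Both strands of an array share its RNA and its scale factor, and the part of these in the correlation was not tested.

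**Figure D2:**
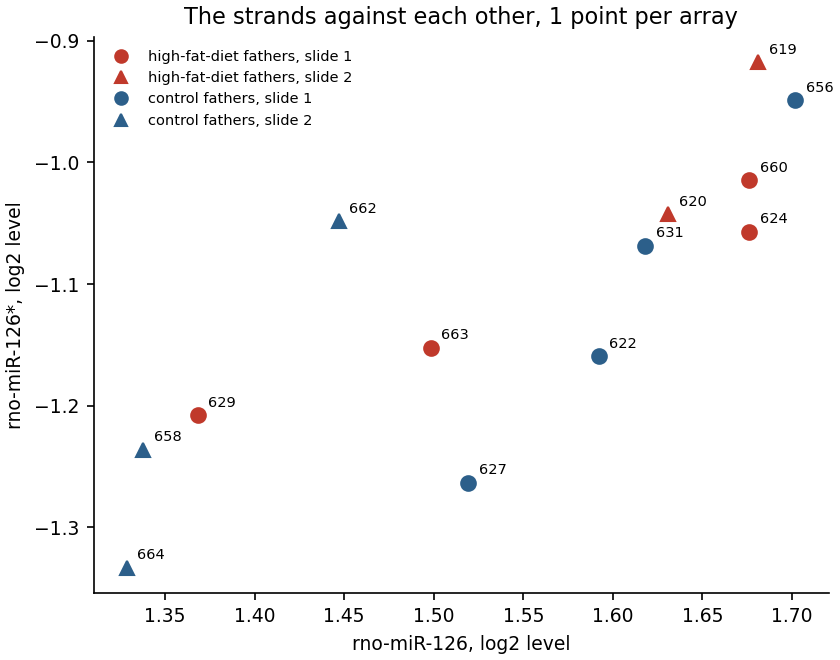
Log2 level of rno-miR-126* (vertical) against rno-miR-126 (horizontal), 1 point per animal, HFD and control in separate colours, circles for slide 1 and triangles for slide 2. Pearson's r is 0.820 over the 13 arrays, and the 6 HFD points lie among the 7 control points.

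The groups were also compared within each slide, and the test of a difference between slides did not pass for either strand. On slide 2, both HFD animals had higher scaled levels of rno-miR-126 than all 3 controls. The log2 levels were 1.63 and 1.68 in HFD animals, against 1.33 to 1.45 in control animals. Before scaling the groups overlapped there, as the brighter probe read 7099 and 6715 in HFD animals, against 6364 to 7790 in controls. On slide 1 the scaled levels overlapped, with log2 levels of 1.37 to 1.68 in the 4 HFD animals, against 1.52 to 1.70 in the 4 controls. The log2 difference was 0.28 ± 0.07 (SE) on slide 2 (fold 1.22, 95% interval of the log2 difference 0.10 to 0.47, limma adjusted p = 0.202) and -0.05 ± 0.08 on slide 1 (95% interval -0.24 to 0.14, limma adjusted p = 0.869). The difference between these differences, slide 2 minus slide 1, was 0.34 ± 0.12 (limma interaction, adjusted p = 0.217). On each slide alone, 17 of the 176 tested miRNAs had an unadjusted p under 0.05, and 0 passed after adjustment. All 3 controls of slide 2 are arrays that stood apart in miRNAs of other cells. They also have animal numbers of 658 to 664, while the HFD animals of slide 2 are 619 and 620. Diet thus cannot be told apart from animal number within this slide. Summed over a list's miRNAs as scaled linear signals, red cell miRNAs were at 3.12 and 3.18 in the HFD animals of slide 2, against 4.71 to 5.48 in its controls. Skeletal muscle miRNAs were at 0.828 and 0.127 in these HFD animals, against 11.4 in control 662, 7.51 in control 664 and 0.496 in control 658. Smooth muscle miRNAs were at 2.90 and 2.83 in these HFD animals, against 14.4 in control 658 and 2.84 and 2.30 in the other controls. On slide 1 the red cell miRNAs had the opposite order, at 3.32 to 6.86 in HFD animals, against 1.70 to 2.59 in controls. The part of these cells in the slide 2 difference was not tested. On slide 1 without HFD 629, the difference for rno-miR-126 was 0.01 ± 0.07. Without the 3 animals high in miR-1, which leaves control 658 as the only control of slide 2, the interaction of rno-miR-126 was 0.31 (limma adjusted p = 0.155).

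The estimates for rno-miR-126* had the same order. On slide 2 its scaled log2 levels were -1.042 and -0.917 in HFD animals, against -1.333 to -1.048 in control animals. The gap was narrow, from -1.042 in HFD 620 to -1.048 in control 662. How many of the 176 tested miRNAs had no overlap on slide 2 was not counted. Before scaling the rno-miR-126* probe read 898 and 802 in these HFD animals, against 763 to 1033 in the controls. These were again controls 658, 662 and 664, which were high in red cell or muscle miRNAs. The log2 difference was 0.23 ± 0.11 on slide 2 (limma adjusted p = 0.479) and 0.0019 ± 0.08 on slide 1 (limma adjusted p = 0.993), with an interaction of 0.22 ± 0.14 (limma, adjusted p = 0.405). Without the 3 animals high in miR-1 the interaction was 0.22 (limma adjusted p = 0.397). For the interaction, 1 of 176 miRNAs was called at an adjusted p under 0.05 (0.568%), and it was rno-miR-451, a red cell miRNA named here after its values were seen. At an unadjusted p under 0.05 there were 34 (19.3%), so the unadjusted p of rno-miR-126, the 14th lowest, stood among many. With slide as a block, the log2 difference between the diet groups was 0.07 ± 0.07 for rno-miR-126 and 0.09 ± 0.07 for rno-miR-126*. Between slides, with diet in the fit, rno-miR-126 differed by -0.09 ± 0.08 (slide 2 minus slide 1) and rno-miR-126* by 0.0021 ± 0.07. Split by animal number at 640, the lower numbers held 4 HFD and 3 control animals and the upper ones 2 and 4. Among the upper numbers, both HFD animals were on slide 1, while controls 658, 662 and 664 were on slide 2. The split is thus tied to slide. By animal number, the difference for rno-miR-126 was 0.01 ± 0.09 among the lower numbers and 0.13 ± 0.13 among the upper ones. For rno-miR-126* the order was the opposite, with 0.11 ± 0.08 among the lower numbers and 0.06 ± 0.13 among the upper ones.

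**Figure D3:**
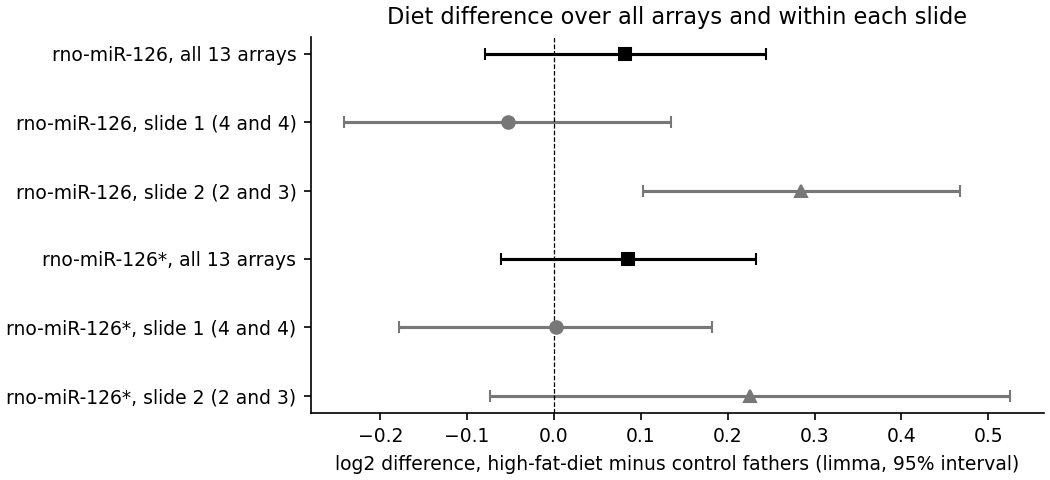
Log2 difference, HFD minus control, of rno-miR-126 and rno-miR-126* with its 95% interval, over all arrays and within slide 1 and slide 2; the vertical line marks no difference. Over all arrays the estimates are 0.08 and 0.09, and the interval of rno-miR-126 clears 0 only on slide 2, from 0.10 to 0.47. The intervals are not adjusted for the number of miRNAs tested, and that difference did not pass (limma, adjusted p = 0.202).

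The spread of rno-miR-126 was next set beside miRNAs of other cells in the tissue. The 2 red cell miRNAs, miR-144 and miR-451, had summed levels of 3.12 to 6.86 with a median of 4.45 in HFD animals, against 1.70 to 5.48 with a median of 2.59 in control animals. The 5 animals lowest in rno-miR-126, control 664, control 658, HFD 629, control 662 and HFD 663, all had red cell sums of 4.71 or more. Of the other 8 animals, HFD 660 alone did, at 5.58 with a rno-miR-126 level of 1.68. The 5 animals lowest in rno-miR-126* included control 627 and control 622, whose red cell sums were 1.70 and 2.50, so this order did not hold for the 5p strand. The order is also one of scaled levels. Before scaling, the brighter rno-miR-126 probe read 8817 in HFD 629 and 7979 in HFD 663, above its median of 7790, which was control 662. Control 664 and control 658 were below it, at 6364 and 6710. With the log2 red cell sum in the fit, an alternative chosen after seeing the data, the difference for rno-miR-126 was 0.18 ± 0.05 (limma, adjusted p = 0.171) and that for rno-miR-126* was 0.14 ± 0.07 (limma adjusted p = 0.410). Neither passed, and the part of blood in the levels was not tested otherwise.

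The 3 animals with high miR-1 lay low in rno-miR-126. Their levels were 1.33 to 1.45, ranks 10, 11 and 13 of 13, against 1.34 to 1.70 with a median of 1.62 in the other 10. For rno-miR-126* their ranks were 5, 10 and 13, so this strand was less uniformly low. These ranks are of scaled levels. Before scaling, the brighter rno-miR-126 probe read 6364 in control 664, 7790 in control 662 and 8817 in HFD 629. Its range over the 13 arrays was 5895 to 9401. The 5 skeletal muscle miRNAs, miR-1, miR-133a, miR-133b, miR-206 and miR-499, had summed levels of 0.0919 to 13.3 with a median of 0.141 in HFD animals, against 0.105 to 11.4 with a median of 0.133 in control animals. Without these 3 animals, left out after seeing the data, the difference was 0.08 ± 0.07 for rno-miR-126 and 0.10 ± 0.07 for rno-miR-126*. The smooth muscle miRNAs miR-143 and miR-145 had summed levels of 2.77 to 3.07 with a median of 2.86 in HFD animals, against 2.30 to 14.4 with a median of 2.84 in control animals. The 14.4 was control 658, the second lowest in rno-miR-126. Without it as well, the difference was 0.02 ± 0.05 for rno-miR-126 and 0.07 ± 0.07 for rno-miR-126*. The part of muscle in these levels was not tested otherwise.

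**Figure D4:**
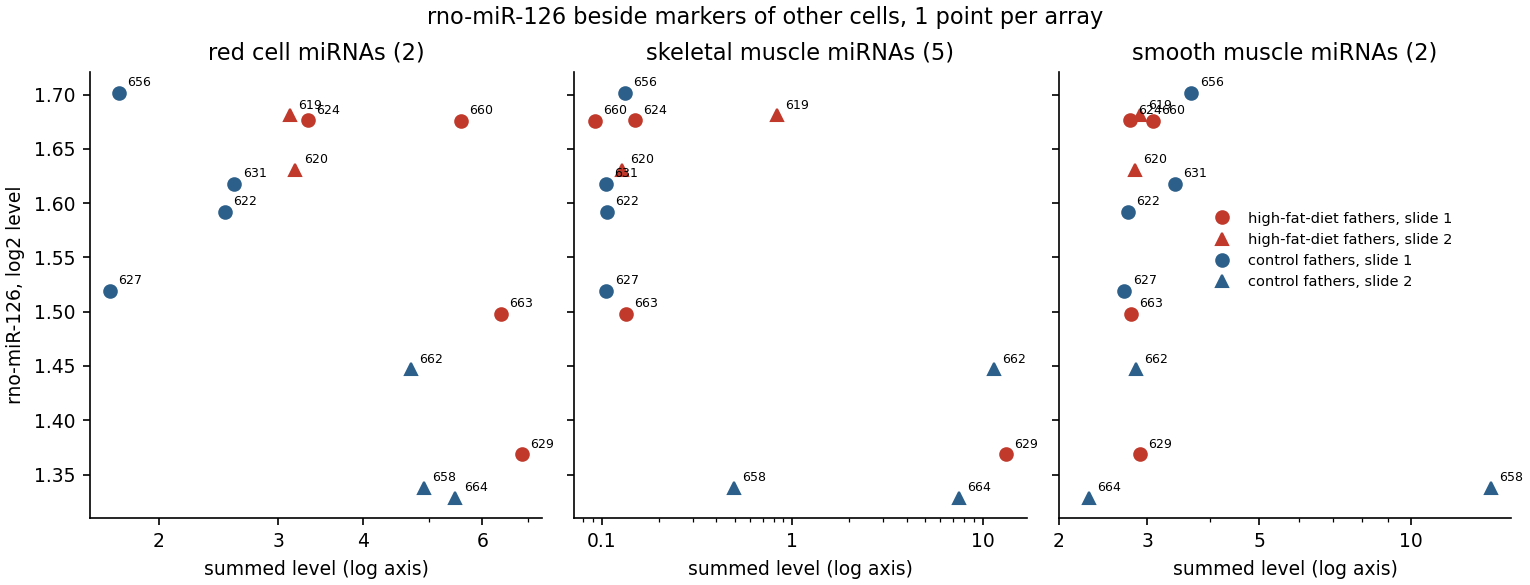
Log2 level of rno-miR-126 (vertical) against the summed level of red cell, skeletal muscle and smooth muscle miRNAs (horizontal, log axes), 1 point per animal with its number, HFD and control in separate colours and slides by symbol. The 5 animals lowest in rno-miR-126 have red cell sums of 4.71 or more, and control 658 stands alone in smooth muscle miRNAs at 14.4.

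The remaining lists overlapped between the groups. The 6 white cell miRNAs had summed levels of 2.60 to 3.14 with a median of 2.90 in HFD animals, against 2.37 to 4.09 with a median of 2.95 in control animals. The 3 adipocyte-rich miRNAs, miR-378, miR-103 and miR-107, were detected on the arrays, with summed levels of 2.005 to 2.75 in HFD animals and 2.02 to 2.27 in control animals, although they are also made in other tissues. The 4 neural miRNAs stayed at or below 0.102 in HFD animals and 0.0795 in control animals, and miR-124 was not detected. The 7 epithelial miRNAs had summed levels of 0.217 to 0.336 in HFD animals and 0.243 to 0.316 in control animals, with miR-200c, miR-141 and miR-429 not detected. The 4 liver and gut miRNAs reached 0.257 in HFD animals and 0.203 in control animals, with miR-215 not detected.

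Other miRNAs with a known place in blood vessels were taken as a list of 24, the strands included. It holds miR-92a of the miR-17-92 cluster, the miR-23, miR-27 and miR-24 clusters, miR-221 and miR-222, which restrain endothelial growth, and miR-210, a miRNA of low oxygen, among others. On the array there were 23 of the 24, and 18 were tested besides the strands. Of these, 0 passed, 7 were higher and 11 lower in HFD animals, and the median log2 difference was -0.0059, against 0.0028 over all 176 tested miRNAs. The 4 with the lowest p were all lower in HFD animals, while both strands were higher by their estimates. The log2 difference was -0.25 ± 0.13 for rno-miR-23b and -0.52 ± 0.27 for rno-miR-221. It was -0.19 ± 0.14 for rno-miR-27b and -0.10 ± 0.07 for rno-miR-100, which is known to restrain mTOR. Each of the 4 had an adjusted p of 0.965 (limma). MiR-132 and miR-296, both known to promote vessel growth, were not detected.

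MiRNAs that followed the strands from animal to animal were found by Pearson's r over the 13 arrays, among 142 other miRNAs detected on all arrays. Over the 13 arrays, the other strand came first for each strand. Next to rno-miR-126 came rno-miR-23a (r = 0.783), rno-miR-322 (0.776), rno-miR-22 (0.759), rno-miR-203 (0.757) and rno-miR-335 (0.755). Next to rno-miR-126* came rno-miR-24-2* (0.669), rno-miR-190 (0.609), rno-miR-322 (0.561), rno-miR-181b (0.546) and rno-miR-22 (0.512). Rno-miR-322 and rno-miR-22 were thus on both lists. Both levels behind each r share the scale factor of their array, so these r are descriptions, with no test. With each array divided by its median in place of the 75th percentile, r of rno-miR-23a with rno-miR-126 was 0.897 and that of rno-miR-24-2* with rno-miR-126* was 0.836.

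The leading neighbour of each strand comes from 1 stretch of chromosome 19, and the neighbours on both lists are shown with them, since their seeds, in capitals, differ from those of the strands.
rno-miR-23a (miR-23a-3p): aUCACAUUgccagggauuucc
rno-miR-24-2* (miR-24-2-5p): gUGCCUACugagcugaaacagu
rno-miR-322 (miR-322-5p): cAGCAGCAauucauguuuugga
rno-miR-22 (miR-22-3p): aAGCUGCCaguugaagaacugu
On GRCr8 rno-miR-23a lies at chr19:40859778-40859798 and rno-miR-24-2* at chr19:40859517-40859538, both on the minus strand. They belong to the miR-23a cluster, known in mouse for a role in vessel sprouting. MiR-322, the rodent form of miR-424, shares its seed with 4 other rat miRNAs, among them miR-16 and miR-195. On slide 1 alone, r was 0.785 for rno-miR-23a with rno-miR-126 and 0.919 for rno-miR-24-2* with rno-miR-126*. The 0.919 was above the 0.822 between the strands on slide 1, so rno-miR-126 was not first for rno-miR-126* there. Without the 3 animals high in miR-1, r of these 2 pairs was 0.664 and 0.701. Other members of the cluster were taken after their values were seen. Rno-miR-27a had r of 0.439 with rno-miR-126 and 0.493 with rno-miR-126*, and rno-miR-24 had 0.384 and 0.385. With median scaling these were 0.752 and 0.783 for rno-miR-27a and 0.709 and 0.711 for rno-miR-24, so their size rests on the scaling. None of the 8 neighbours passed between the groups. Their log2 differences, HFD minus control, ran from -0.0026 for rno-miR-181b to 0.17 ± 0.12 for rno-miR-203, an epithelial miRNA.

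The deposited value table holds other values of rno-miR-126* on 2 arrays. It gives log2 of the total gene signal, an intensity per miRNA that the scanner software adds up, and on 11 arrays it gave 9.62 to 10.5 for rno-miR-126*, equal to the scanner files within 2e-04. On HFD 619 it gave 13.45, against 10.13 in the scanner file, and on control 662 it gave 13.67, against 10.34. Both table values are above the scanner's by 3.32 on the log2 scale, a ratio of 10.01. Rno-miR-126 was equal to the scanner files on all 13 arrays, at 12.5 to 13.2. In all, 26 of the 2569 values of the table differed. Of these, 9 lay within 1% of a factor of 10, 6 within 1% of a factor of 100, and 9 were off a factor of 1000 by 2.13% to 5.26%. With the table as given, rno-miR-126* averaged 10.76 ± 1.33 in HFD animals and 10.57 ± 1.39 in control animals (SD, n = 6 and 7). Without the 2 altered values it averaged 10.22 ± 0.198 in HFD animals (n = 5) and 10.05 ± 0.294 in control animals (n = 6). The correlation between the strands was 0.139 by Pearson's r in the table as given (permutation p = 0.652) and 0.709 by Spearman's rho (permutation p = 0.00868). From the scanner's total gene signal, scaled between arrays, r was 0.906 (permutation p = 7e-05) and rho was 0.890 (permutation p = 0.00015). The table as given is not scaled, so the 2 sets of values differ in scaling as well as in the altered values.

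**Figure D5:**
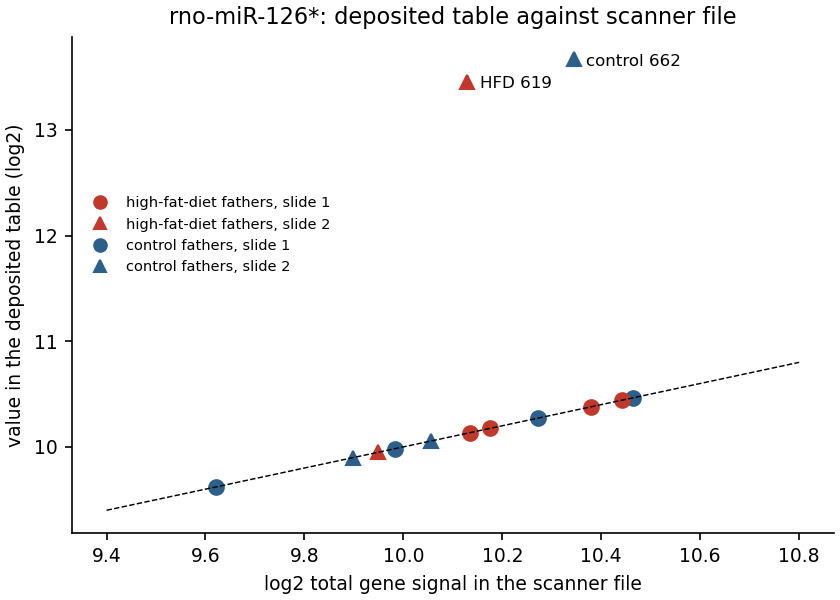
Value of rno-miR-126* in the deposited table (vertical, log2) against log2 of its total gene signal in the scanner file (horizontal), 1 point per animal; the dashed line marks equal values. HFD 619 at 13.45 and control 662 at 13.67 lie above the line, and the other 11 points lie on it.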

How the data were processed

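Per the file headers, the authors scanned 1 Agilent array per animal and read spot intensities with Feature Extraction 10.7.3.1, which subtracted the background. These linear intensity values were deposited by the authors with no scaling between arrays. The deposited value table is log2 of the total gene signal, uncentred, as found by setting it against the scanner values, and it served only as an alternative. RMA and Partek appear in the submitters' processing notes, and their role is not given there.

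Control spots and spots with outlier flags were left out. The mean of the other spots of each probe was scaled by the 75th percentile that the 260 probes detected on all 13 arrays had on that array. Log2 was taken after setting a floor of 0.0197 (log2 -5.67). The floor comes from scaled spots well above background, as their 1st percentile per array and then its median, and values at it have no order. Probes of a miRNA were averaged. Detection on an array asked for 1 probe or more with a share of at least 0.5 of its spots well above background, and a test asked for detection on 6 arrays or more. Groups came from the sample titles and slides from the file headers.

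The fits used lmFit and eBayes of limma 3.58.1 under R 4.3.3 (two-sided, Benjamini-Hochberg over all 176 miRNAs, threshold 0.05) and were tested on simulated data. Correlations used two-sided permutation tests with 100000 resamples, exact for up to 7 arrays. The number of arrays limits the precision. Normexp, with an offset of 50, ran on the median signal and background of each spot in place of the planned mean signal, which was not used here. The members, the lists and the tests were chosen with earlier results of these data known. The rule for naming took the strands, the 5 miRNAs most alike to each, the 4 lowest p of the vascular list and the sum of each marker list.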

Additional observations from a re-analysis of the deposited data

Results flagged for a closer look

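The deposited table's rno-miR-126* value on HFD 619 was 13.45, and its gap to the nearest HFD value was 0.859 of the group's range, above Dixon's 95% critical value of 0.625 for 6 arrays. The table's value on control 662 was 13.67, with a gap of 0.792 of the range, above the critical value of 0.568 for 7 arrays. A gap at or above the critical value occurs by chance in about 1 of 20 groups, and both gaps were well above it. Both values are altered entries of the table, at a ratio of 10.01 to the scanner's, so this rate does not apply to them. In the scanner files, rno-miR-126* on these arrays lay inside the range of the others, at 10.13 on HFD 619 and 10.34 on control 662. By the same test on the scanner levels, no array stood apart in either strand, in their difference or in the separate probes.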

How the results depend on the processing

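No paired analysis was possible because each animal number occurs once. The difference for rno-miR-126 kept its direction under 40 of 41 alternatives and passed under none (adjusted p 0.171 to 1). It reversed to -0.053 on slide 1 alone. Leaving out 1 array gave 0.05 to 0.13, with 0.05 without control 658 or control 664 and 0.13 without HFD 629. For rno-miR-126* all 41 alternatives were above 0, from 0.0019 to 0.23 (adjusted p 0.410 to 1), and leaving out 1 array gave 0.06 to 0.12, lowest without control 664 (0.0554) and HFD 619 (0.0561). Total gene signal gave 0.04 for each strand, quantile normalization 0.11 for rno-miR-126 and 0.02 for rno-miR-126*, and the centred deposited values 0.0075 for rno-miR-126. Without the 2 arrays of high mean muscle miRNA level, control 662 and HFD 629, they were 0.12 and 0.13. The count of called miRNAs was 0 under all 41, with 1 to 21 at an unadjusted p under 0.05.

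The strand difference between the groups moved to -0.090 under quantile normalization and to 0.095 among the lower animal numbers alone, which was chosen after seeing the data. Leaving out 1 array gave -0.02 to 0.03. Pearson's r between the strands was 0.139 in the deposited table, which holds the 2 altered values, and 0.906 to 0.955 under 3 other scalings and 0.939 unscaled. The slide interaction of rno-miR-126 was -0.16 in the uncentred deposited table, reversed, and 0.37 from the scanner's total gene signal scaled between arrays. With the 75th percentile over all probes it was 0.56 for rno-miR-126 and 0.45 for rno-miR-126* (adjusted p 0.230 each). For rno-miR-126 the deposited values equal the scanner's total gene signal on all 13 arrays, so -0.16 and 0.37 differ by the scaling alone. What made the scale factors differ between arrays was not tested. Leaving out 1 array gave 0.28 to 0.38 for rno-miR-126 (adjusted p 0.0674 to 0.494) and 0.16 to 0.30 for rno-miR-126*. With 13 arrays, differences within the intervals given remain compatible with the values, and no smallest detectable difference was computed.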
